A study of Rattus norvegicus with 12 samples.

Results

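Neonatal rat ventricular myocytes (NRVMs) that received both the siRNA against Slc39a2 and phenylephrine (PE), the group siSlc39a2 PE, were compared with NRVMs that received neither, the control group siNeg. The comparison took 6 of the 12 RNA-seq samples of the series, 3 per group, and all 13967 genes that passed a filter on low counts out of 18483 genes in the count table. NRVMs are primary heart muscle cells prepared from newborn Sprague-Dawley rats and kept in serum-free DMEM with insulin, transferrin and selenium. The siNeg cells were transfected with the negative control siRNA alone. The siSlc39a2 PE cells were transfected with siSlc39a2, an siRNA of a single sequence, and PE was added 12 h later for 36 h per the labels, while the culture methods give a longer exposure. The groups with a single agent are siNeg PE and siSlc39a2, so cells of all 4 groups had been transfected. The comparison asks how far the transcriptome of cells under both manipulations lies from that of control cells. Within it the effects of the siRNA and of PE cannot be told apart, and the groups with a single agent are given beside it.

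PE is an agonist of the α1-adrenergic receptors, and in cultured cardiomyocytes it drives hypertrophic growth with re-expression of fetal genes such as the natriuretic peptides. Slc39a2 (ZIP2) is a member of the ZIP family of transporters, which carry zinc into the cytosol. The interferon response, which appears among the results, runs from sensors of foreign nucleic acid through type I interferon and its receptor to transcription factors, and from there to antiviral genes whose promoters carry the interferon-stimulated response element (ISRE).

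Because genes of the interferon response and the natriuretic peptide genes were among the most increased ones, the promoters of 6 genes are shown first. They are the 250 bases before the annotated start of each gene, 5′ to 3′ on the strand of the gene, from RefSeq with build GRCr8, whereas the deposited values were made on Rnor_6.0. Capitals mark matches to the ISRE core GAAANNGAA on either strand. Ifit3, Irf7, Cxcl10 and Mx1 belong to the interferon response, and Nppb and Nppa encode brain and atrial natriuretic peptide. The level of Mx1 is not reported here.
Ifit3 (chr1:241527076-241527325, plus strand): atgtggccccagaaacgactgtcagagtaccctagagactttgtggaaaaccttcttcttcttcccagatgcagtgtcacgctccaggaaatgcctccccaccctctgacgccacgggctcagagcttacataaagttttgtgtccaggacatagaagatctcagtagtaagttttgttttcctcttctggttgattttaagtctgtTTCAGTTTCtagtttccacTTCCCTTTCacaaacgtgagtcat
Irf7 (chr1:205800024-205800273, minus strand): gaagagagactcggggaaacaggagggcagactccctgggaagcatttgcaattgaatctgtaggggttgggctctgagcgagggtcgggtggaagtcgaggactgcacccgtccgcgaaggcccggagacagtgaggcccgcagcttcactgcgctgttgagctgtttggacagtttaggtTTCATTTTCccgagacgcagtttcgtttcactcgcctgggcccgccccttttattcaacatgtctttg
Cxcl10 (chr14:15988816-15989065, plus strand): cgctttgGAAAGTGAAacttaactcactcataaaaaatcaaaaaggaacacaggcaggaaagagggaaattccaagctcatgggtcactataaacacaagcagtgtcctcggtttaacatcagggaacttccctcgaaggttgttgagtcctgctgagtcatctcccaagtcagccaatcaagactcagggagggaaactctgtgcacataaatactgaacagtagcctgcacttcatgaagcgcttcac
Mx1 (chr11:50294607-50294856, minus strand): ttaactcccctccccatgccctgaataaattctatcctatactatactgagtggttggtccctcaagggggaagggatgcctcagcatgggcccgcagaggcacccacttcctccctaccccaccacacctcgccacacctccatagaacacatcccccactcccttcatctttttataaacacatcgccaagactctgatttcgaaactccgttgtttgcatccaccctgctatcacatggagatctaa
Nppb (chr5:163699758-163700007, plus strand): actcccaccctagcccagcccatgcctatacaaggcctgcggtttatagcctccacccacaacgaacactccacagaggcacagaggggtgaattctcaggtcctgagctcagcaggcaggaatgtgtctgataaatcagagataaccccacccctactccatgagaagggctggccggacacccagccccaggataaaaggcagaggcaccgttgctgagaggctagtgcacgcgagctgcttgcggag
Nppa (chr5:163711934-163712183, plus strand): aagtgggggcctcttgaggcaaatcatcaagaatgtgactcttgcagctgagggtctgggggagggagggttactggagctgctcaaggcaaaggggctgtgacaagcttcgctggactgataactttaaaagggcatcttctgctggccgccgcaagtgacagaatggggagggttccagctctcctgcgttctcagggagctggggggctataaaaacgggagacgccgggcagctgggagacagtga
Ifit3 held 2 matches, at bases 43 to 35 and 24 to 16 before the start. Irf7 held 1 match at bases 68 to 60 before the start, and Cxcl10 held 1 at bases 243 to 235. No match lay in the windows of Mx1, Nppb and Nppa.

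Total counts of the 12 samples were between 24065539 and 28603854. No 2 samples of a group were copies of each other, and siNeg 1 and siSlc39a2 PE 3 stood apart within their groups. The cells expressed cardiomyocyte genes at high level. The summed level of 12 cardiomyocyte markers was 62983 ± 1223 CPM (counts scaled to the normalized library size; SD, n = 3) in siNeg and 68834 ± 2699 in siSlc39a2 PE. Single markers went both ways, with a median log2 fold change of -0.24 and a range from -2.11 for Myh6 to 1.27 for Actc1. In 5 of the 12, reads are shared with other genes. The summed level of 14 fibroblast markers was 17439 ± 2467 CPM in siNeg and 4339 ± 814 in siSlc39a2 PE. Markers of endothelial cells, macrophages, lymphocytes, Schwann cells and the epicardium summed to at most 30.0 CPM in any of these 6 samples, and Cd3e and Cd79a had at most 2 counts in any sample. In bulk RNA, fewer cells of a type and less RNA per cell cannot be told apart.

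Slc39a2, the target of the siRNA, was low in all samples. It was measured at 1.97, 1.89 and 2.32 CPM in siNeg and at 1.16, 0.862 and 1.38 CPM in siSlc39a2 PE. The groups did not overlap, which held in the lower direction for 38.2% of all genes tested. The difference was not past the test, with a log2 fold change of -0.86 ± 0.40 (SE; adjusted p = 0.0646 by the quasi-likelihood F-test of edgeR, as all adjusted p below). The target was 3.5, 6.96 and 6.68 CPM in siNeg PE and 0.726, 0.373 and 0.078 CPM in siSlc39a2. The log2 fold change was 1.47 for PE alone against siNeg (adjusted p = 0.00541) and -2.35 for the siRNA alone (adjusted p = 0.00098). With PE in both groups, the siRNA gave a log2 fold change of -2.33 for Slc39a2 (adjusted p = 0.000224). In a fit on the 6 samples of siNeg and siSlc39a2 PE alone, the adjusted p of the first difference was 0.00862 at a log2 fold change of -0.87. The target in siSlc39a2 PE therefore stood below siNeg PE, and its level against siNeg was the one that did not pass.

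A gene was called higher or lower at an absolute log2 fold change above 1 with an adjusted p below 0.05. Of 13967 genes, 2420 were higher in siSlc39a2 PE than in siNeg (17.3%) and 1693 were lower (12.1%). The shares of the lists below are to be read beside these. By adjusted p alone, 5307 genes were higher (38%) and 5204 were lower (37.3%), so that about as many genes moved up as down. The CPM of the 3 and 3 samples did not overlap in 5412 genes in the higher direction (38.7%) and 5332 in the lower (38.2%). Groups without overlap were therefore common. For comparison with the same siNeg samples, PE alone gave 531 higher (3.8%) and 391 lower genes (2.8%), and the siRNA alone gave 638 higher (4.57%) and 728 lower genes (5.21%). The median absolute log2 fold change over all genes was 0.65 for both agents together, 0.33 for PE alone and 0.33 for the siRNA alone. Large changes were more often increases, with 161 genes above a log2 fold change of 4 and 49 genes below its negative. Genes called higher took 5.94% of all CPM in siNeg and 20.4% in siSlc39a2 PE, and genes called lower took 17.5% and 6.44%. The calls were made on these same samples, so the direction of both changes was fixed by the choice of genes. Of the called genes, 70.8% had whole counts in every sample. The other called genes share reads with further genes, and any of them named below is marked as uncertain.

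**Figure D1:**
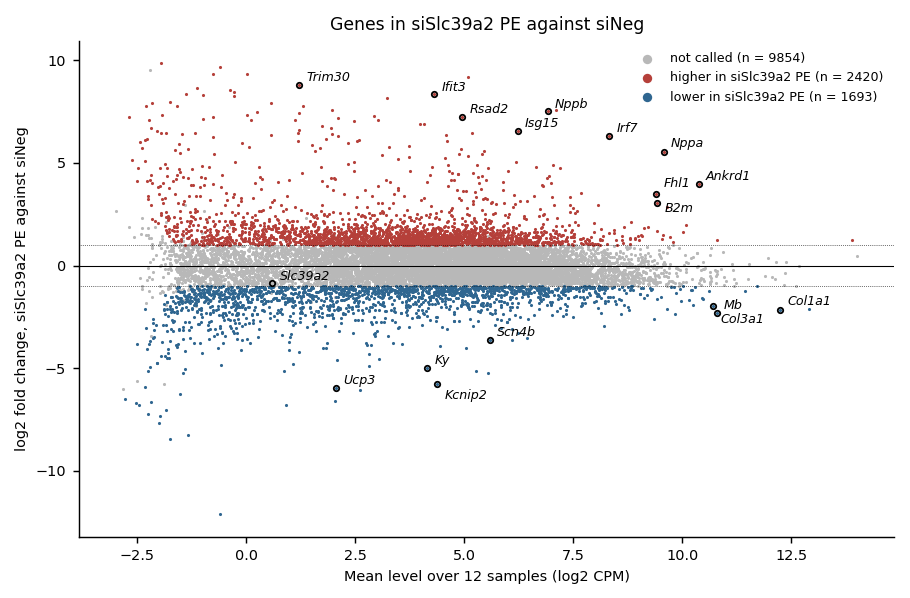
Log2 fold change of siSlc39a2 PE against siNeg (y axis) against mean log2 CPM over the 12 samples (x axis) for the 13967 genes tested, with genes called higher or lower in colour. The natriuretic peptide and interferon response genes lie at the top, Ucp3, Kcnip2 and Ky in the lower part, and Slc39a2 near the left side between the thresholds.

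The fetal cardiac genes held the largest gains in absolute level. Nppa was measured at 99.9, 114 and 120 CPM in siNeg and at 5412, 5131 and 4822 CPM in siSlc39a2 PE. It rose 45.9-fold, with a log2 fold change of 5.52 ± 0.16 (adjusted p = 1.98e-11). Per transcript length, Nppa was the 683rd most abundant gene in siNeg (146 ± 17.5 FPKM) and the 2nd in siSlc39a2 PE (7135 ± 331 FPKM, n = 3). Nppb was 9.83, 6.86 and 8.04 CPM in siNeg and 1623, 1527 and 1378 CPM in siSlc39a2 PE, and it rose 183-fold (log2 fold change 7.52 ± 0.19, adjusted p = 5.44e-12). Its rank by FPKM went from 4997 to 12. No sample of one group reached the other for either gene, as for 38.7% of all genes tested in the higher direction. Ankrd1, a stress-induced ankyrin repeat protein of the sarcomere and nucleus, was 340, 360 and 389 CPM in siNeg and 5299, 5614 and 6339 CPM in siSlc39a2 PE (log2 fold change 3.99 ± 0.12). Fhl1, a LIM domain protein of the sarcomere linked to hypertrophic signalling, was 244, 253 and 273 CPM against 2896, 2874 and 2878 CPM (log2 fold change 3.49 ± 0.12). Both genes also had groups far apart.

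Over the 29 natriuretic peptide and fetal cardiac genes tested, 10 were higher (34.5%) and 6 were lower (20.7%), with a median log2 fold change of 0.17 beside 0.00 over all genes tested. The list thus moved in both directions. The myosin heavy chains, whose counts are uncertain because they share reads, had log2 fold changes of -2.11 ± 0.09 for Myh6, the adult α form, and 0.49 ± 0.07 for Myh7, the fetal β form, which is below the threshold. With limma on log2(FPKM + 1) that of Myh7 was 1.17 (adjusted p = 1.36e-06), past the threshold, and with limma on log2(count + 1) it was -0.10 (adjusted p = 0.265). Skeletal actin Acta1 (uncertain) rose by a log2 fold change of 1.99 ± 0.09, from 731, 648 and 707 CPM to 2912, 2685 and 2707 CPM. Cardiac actin Actc1 (uncertain) rose by 1.27 ± 0.06 and was the most abundant gene by FPKM in both groups. Cnn1, a calponin of smooth muscle that fetal cardiomyocytes also express, rose from 27, 27.6 and 29.3 CPM to 236, 229 and 238 CPM. Of 30 sarcomere genes, 8 were higher (26.7%) and 2 were lower (6.67%). Mybpc2, the fast skeletal form of myosin binding protein C, had the largest of these rises, from 1.94, 2.12 and 3.23 CPM to 60.8, 61 and 55.7 CPM. The Z-disc proteins Csrp3 and Pdlim5 each rose by a log2 fold change of 1.89, and Nrap, a scaffold of myofibril assembly, rose by 1.3.

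**Figure D2:**
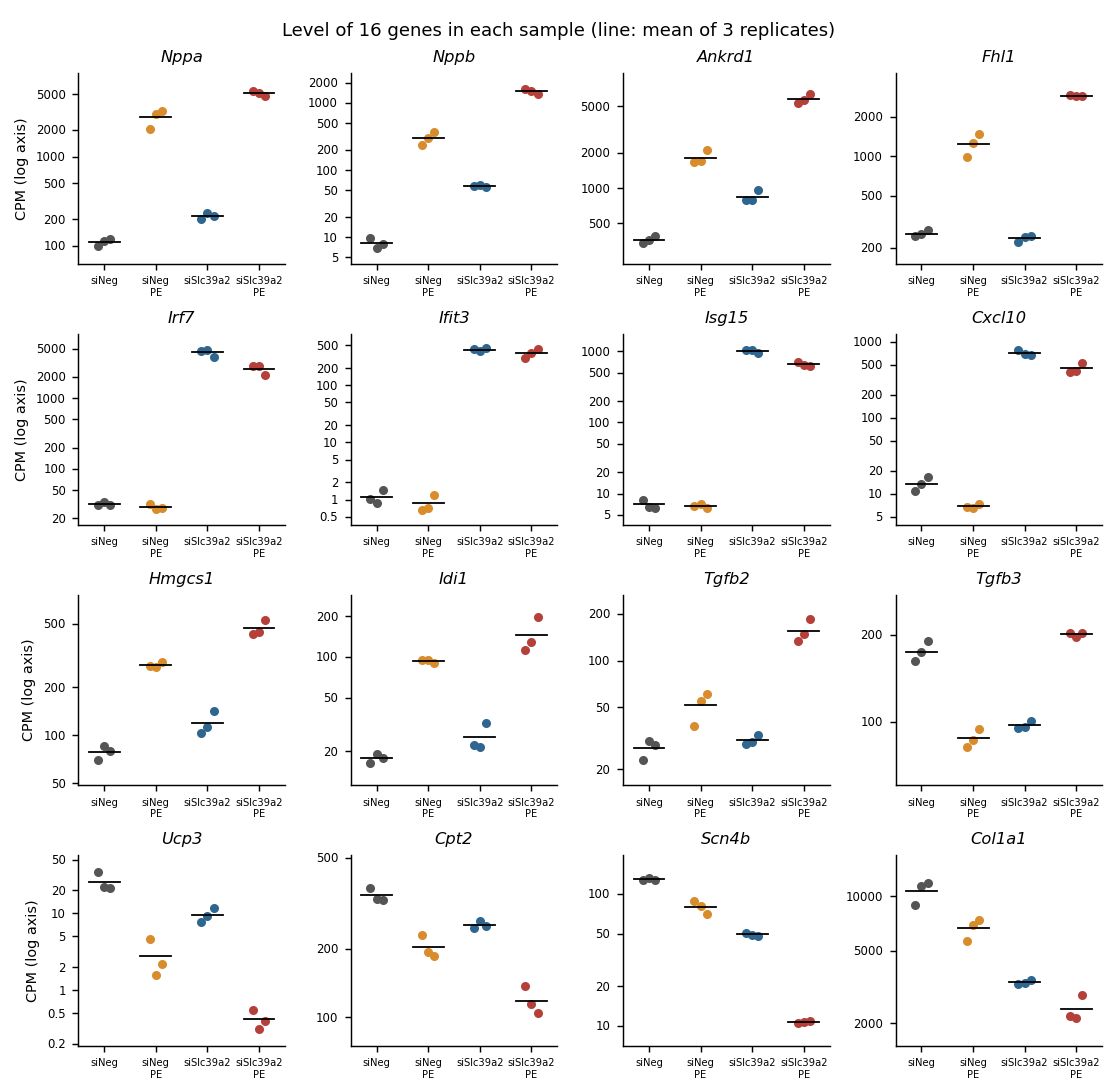
Level of 16 genes in each of the 12 samples as CPM on a log axis, by group, where points are samples and lines are group means. Nppa, Nppb, Ankrd1 and Fhl1 are highest in siSlc39a2 PE, Irf7, Isg15 and Cxcl10 are highest in siSlc39a2, and Ucp3, Cpt2, Scn4b and Col1a1 are lowest in siSlc39a2 PE.

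The interferon response was the other large increase. Among its signalling genes, Irf7, the transcription factor that amplifies interferon production, was 30.9, 34.3 and 31.1 CPM in siNeg and 2854, 2818 and 2102 CPM in siSlc39a2 PE. It rose 80.7-fold (log2 fold change 6.33 ± 0.15, adjusted p = 3.83e-12). Ifnb1, which encodes interferon β, had no count in any siNeg or siNeg PE sample. It was 1.72, 1.17 and 1.42 CPM in siSlc39a2 PE, at least 12.3-fold above a floor of 3 counts per library. Over the list of interferons and interferon signalling, 11 of 21 genes tested were higher (52.4%) and 0 were lower, and 2 had an adjusted p below 0.05 in the negative direction. Its members had a median log2 fold change of 1.03.

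The other interferon regulatory factors moved less than Irf7. Irf1 rose by a log2 fold change of 1.03 ± 0.09, which was 0.97 without siNeg 2, and Irf9 (uncertain), a partner of STAT2, by 1.73 ± 0.06. Irf8 rose by 1.63. Irf2 had a log2 fold change of 0.39, Irf5 of 0.35 and Irf3 (uncertain), which is activated by phosphorylation rather than by its transcript level, of -0.04. None of these 3 was past the threshold. Stat2 rose by 2.10 ± 0.07.

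Of 22 nucleic acid sensors and adaptors, 13 were higher (59.1%) and 1 was lower (4.55%). The RNA sensor Ddx58 (RIG-I) was 28.1, 31.9 and 33.1 CPM in siNeg and 463, 474 and 566 CPM in siSlc39a2 PE. Ifih1 (MDA5) rose by a log2 fold change of 4.88 ± 0.27 and Dhx58 (LGP2), which modulates both, by 5.25 ± 0.08. The sensors of DNA and Z-form nucleic acid, Cgas and Zbp1, rose by 4.21 ± 0.43 and 7.91 ± 0.35 from levels under 1 CPM. Mavs, the mitochondrial adaptor of the RNA sensors, was the member called lower, from 114, 106 and 107 CPM to 55.8, 52.2 and 50.4 CPM. Its log2 fold change of -1.05 was -0.98 without siNeg 1 and siSlc39a2 PE 3. By adjusted p alone, 17 members were higher and 5 were lower. The list median was 1.68, or 1.61 with genes of at most 3 counts in siNeg set to their lower bound.

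Of the antiviral effectors, 60 of 64 genes were higher (93.8%) and 0 were lower, with a median log2 fold change of 4.44. By adjusted p alone, 62 were higher and 1 was lower. In 26 of the 64 the counts are uncertain. Their summed level was 1540, 1558 and 1444 CPM in siNeg and 14569, 14790 and 16410 CPM in siSlc39a2 PE. Ifit3, which binds viral RNA in complex with other IFIT proteins, was 1.03, 0.871 and 1.46 CPM in siNeg and 303, 359 and 428 CPM in siSlc39a2 PE, a 324-fold rise. Isg15, a ubiquitin-like modifier, rose 94.7-fold, from 8.17, 6.55 and 6.34 CPM to 721, 650 and 625 CPM. Rsad2 (viperin) rose from 1.82, 2.08 and 3.03 CPM to 286, 313 and 453 CPM. Trim30 had at most 3 counts in every siNeg sample and 26.1, 33.5 and 50 CPM in siSlc39a2 PE, at least 313-fold above the floor. In each of these genes the groups did not overlap, which held in the higher direction for 38.7% of all genes tested.

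MHC class I presentation rose with them, with 17 of 19 genes higher (89.5%), 0 lower and a median log2 fold change of 3.03. In 14 of the 19 the counts are uncertain. B2m, the common light chain of class I molecules, was 265, 247 and 205 CPM in siNeg and 1900, 2068 and 1887 CPM in siSlc39a2 PE. Psmb9, a subunit of the immunoproteasome, rose by a log2 fold change of 4.47 ± 0.16. Of 24 chemokines and inflammatory cytokines, 17 were higher (70.8%) and 1 was lower (4.17%), with a median of 2.68, or 2.63 with genes at their lower bound. Cxcl10, which attracts T cells, rose 33-fold, from 10.8, 13.3 and 16.4 CPM to 402, 411 and 521 CPM. Ccl2, which attracts monocytes, rose from 28.3, 28.3 and 25.8 CPM to 402, 425 and 441 CPM. Ccl5, Ccl7 and Ccl4 rose by log2 fold changes of 4.14, 4.53 and 5.58. Il6 stayed scarce, with 0.237, 0.0758 and 0.118 CPM in siNeg and 0.671, 0.897 and 1.09 CPM in siSlc39a2 PE, and was called higher (log2 fold change 2.60 ± 0.52, adjusted p = 0.000513). The summed level of 11 macrophage markers was 28.5 ± 2.65 CPM in siNeg and 12.1 ± 1.54 CPM in siSlc39a2 PE.

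The NFκB list moved far less. Of 18 subunits and feedback genes, 4 were higher (22.2%) and 0 were lower, and the median log2 fold change was 0.00. Nfkb1, which encodes p105 and p50, had a log2 fold change of 0.58 ± 0.06, and Rela (uncertain), which encodes p65, had one of -0.37 ± 0.07. Nfkbia, the inhibitor IκBα and itself an NFκB target, had one of 0.65 ± 0.09. All 3 had an adjusted p below 0.05 and were under the 2-fold threshold. Nfkbiz, an inducible nuclear IκB protein, rose by 2.48 ± 0.23. Stat3, which acts downstream of IL-6, had a log2 fold change of 0.11 ± 0.06 (adjusted p = 0.0833).

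The ISRE core shown above was searched on both strands in windows of 300 bases, from 250 before to 50 after the start, for the 10832 genes tested that had a promoter in the table. It lay in 7.23% of them, in 10.7% of 1875 genes called higher and in 5.83% of 1269 genes called lower. Among 108 genes with a log2 fold change above 4, 45.4% held it. It was in 59.3% of 54 antiviral effectors and in 52.9% of 17 genes of MHC class I presentation. The CArG box, to which serum response factor binds, was searched by name and lay in 1.31% of all windows and in 18.2% of 22 natriuretic peptide and fetal cardiac genes, though not in the printed windows of Nppa and Nppb. The core TGCACNC or TGCGCNC of the metal response element lay in 36.6% of all windows and in 50% of 18 zinc transporter genes. Matches to these letters are a description and not sites of binding.

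Most genes of the extracellular matrix fell. Of 32 collagens, 15 were lower (46.9%) and 0 were higher, with a median log2 fold change of -0.95. By adjusted p alone, 22 collagens were lower and 3 were higher. Col1a1, a chain of type I collagen, was 8990, 11364 and 11915 CPM in siNeg and 2176, 2123 and 2856 CPM in siSlc39a2 PE (log2 fold change -2.17 ± 0.14). Col3a1 had a log2 fold change of -1.99 and Col8a2, a chain of type VIII collagen, had one of -3.42. Of 58 other matrix proteins and proteases, 31 were lower (53.4%) and 3 were higher (5.17%), with a median of -1.03. By adjusted p alone, 44 of these were lower and 8 were higher. Elastin, Eln, fell from 597, 760 and 914 CPM to 92.1, 88.1 and 113 CPM. Fibronectin, Fn1, fell by 1.57 on the log2 scale, and the gelatinase Mmp2 fell by 1.99. Timp1 (uncertain), an inhibitor of matrix metalloproteinases, was among the 3 members called higher (log2 fold change 1.16 ± 0.09), while Timp4 fell by 3.03.

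Fibroblast markers moved with these lists. Of the 14 markers 8 were lower (57.1%, beside 12.1% over all genes tested) and 0 were higher (beside 17.3%), with a median of -1.37. Their summed level was between 14620 and 19206 CPM in siNeg, between 9737 and 12361 in siNeg PE, between 5698 and 6004 in siSlc39a2 and between 3847 and 5279 in siSlc39a2 PE. No fibroblast marker was at 0. The markers that are not collagens split. Dpt, Mfap4 (uncertain), Pcolce, Thy1 and Postn fell, with log2 fold changes of -2.50, -2.15, -1.72, -1.78 and -1.02. Postn was above the threshold of -1 without siSlc39a2 PE 1 (-0.78), siSlc39a2 PE 2 (-0.92) or siNeg 2 (-0.95). Pdgfra (uncertain) had a log2 fold change of 0.45, Tcf21 of -0.15, Dcn of -0.33, Lum of -0.51, Ddr2 of 0.15 and Gas1 of -0.06. Of 8 smooth muscle and pericyte markers, 3 were lower (37.5%) and 1, Cnn1, was higher (12.5%). The sum of these 8 was 2651 ± 64.7 CPM in siNeg and 1802 ± 63.6 in siSlc39a2 PE. Of 11 macrophage markers, 5 were lower (45.5%) and 0 were higher. The part of these cells in the matrix result was not tested.

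Growth factor genes had a larger share of lower genes than all genes tested. Of 43 tested, 14 were lower (32.6%, beside 12.1% over all genes tested), with a median of -0.29. The 8 called higher (18.6%) were near the share over all genes tested (17.3%). The TGFβ ligands differed among themselves. Tgfb2 rose from 22.8, 30.5 and 28.6 CPM to 134, 149 and 184 CPM (log2 fold change 2.51 ± 0.17), Tgfb1 fell by 1.25 ± 0.09, and Tgfb3 was 162, 174 and 190 CPM in siNeg against 203, 197 and 203 CPM (log2 fold change 0.20 ± 0.07). The EGF receptor ligand Areg rose by 3.12 ± 0.29 from under 1 CPM. Igfbp5, which binds insulin-like growth factors, fell from 22.7, 28.9 and 29.2 CPM to 0.895, 1.31 and 1.82 CPM, and Ltbp4, which anchors latent TGFβ in the matrix, fell by 3.09 ± 0.10.

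Fatty acid oxidation had a larger share of lower genes than all genes tested (12.1%). Of its 47 genes, 21 were lower (44.7%) and 0 were higher, with a median of -0.89. The summed level of the list was 17875 ± 1548 CPM in siNeg and 8680 ± 515 in siSlc39a2 PE. Ucp3, a mitochondrial carrier of the uncoupling protein family, was 34.8, 22.2 and 21.1 CPM in siNeg and 0.559, 0.31 and 0.4 CPM in siSlc39a2 PE (log2 fold change -5.94 ± 0.42). The carnitine palmitoyltransferases, which bring long-chain fatty acids into mitochondria, fell by 1.64 for Cpt1b (uncertain) and by 1.53 for Cpt2 on the log2 scale. Ppara, the nuclear receptor that drives many of these genes, had a log2 fold change of -0.37 ± 0.09. The fatty acid transporter Cd36 (uncertain) had one of -0.12 ± 0.15 (adjusted p = 0.501).

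Myoglobin, Mb, which stores oxygen in muscle, fell from 4780, 3504 and 3338 CPM to 886, 753 and 745 CPM, and its rank by FPKM went from 7 to 76. Of 33 genes of glucose uptake and glycolysis, 7 were lower (21.2%) and 3 were higher (9.09%). The insulin-regulated transporter Slc2a4 (GLUT4) fell from 64.5, 74.8 and 74 CPM to 18.7, 18.9 and 16.9 CPM, and the muscle enzymes Pfkm and Pgam2 had log2 fold changes of -1.69 and -2.59. Slc2a1 (GLUT1) had a log2 fold change of 0.22 ± 0.07. Of 63 genes of oxidative phosphorylation, 7 were lower (11.1%, beside 12.1% over all genes tested) and 0 were higher, with a median of -0.71. Without siNeg 1 the 7 were 3, and without siNeg 3 they were 11. By adjusted p alone, 55 of the 63 were lower and 3 were higher. Of 13 creatine and adenylate kinase genes 5 were lower (38.5%) and 2 were higher (15.4%). Muscle creatine kinase, Ckm, fell by 2.34 ± 0.11.

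Of 30 channel genes, 10 were lower (33.3%) and 2 were higher (6.67%), with a median of -0.70. Scn4b, a β subunit of the sodium channel, was 127, 133 and 127 CPM in siNeg and 10.4, 10.6 and 10.8 CPM in siSlc39a2 PE (log2 fold change -3.60 ± 0.09). Kcnip2 (uncertain), the accessory subunit of the channels of the transient outward current, fell from 197, 142 and 131 CPM to 4.4, 2.14 and 2.07 CPM, and the pore subunit Kcnd2 (uncertain) fell by 2.83 ± 0.19. Kcnh2, the channel of the rapid delayed rectifier current, fell by 1.84. Ky, a protein needed for the upkeep of muscle, fell by 4.97 ± 0.12, from 80.2, 77.2 and 77.2 CPM to 2.35, 2.48 and 2.65 CPM. Its samples lay close together within each group and the groups far apart.

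Of 29 calcium cycling genes, 7 were lower (24.1%) and 4 were higher (13.8%). The sarcoplasmic reticulum pump Atp2a2 (SERCA2) was 7300, 7959 and 8644 CPM in siNeg and 4175, 4009 and 4031 CPM in siSlc39a2 PE, and its log2 fold change of -0.97 ± 0.08 was just under the threshold. The sodium-calcium exchanger Slc8a1 rose by 1.5 ± 0.11, and Casq1 (uncertain), the skeletal calsequestrin, by 2.42 ± 0.08. The ryanodine receptor Ryr2 had a log2 fold change of -0.05 and phospholamban, Pln, of -0.64. Of 26 genes of adrenergic, endothelin and angiotensin signalling, 7 were lower (26.9%) and 2 were higher (7.69%). The receptors to which PE binds differed: Adra1b and Adra1d fell, with log2 fold changes of -2.09 ± 0.13 and -1.99 ± 0.11, whereas Adra1a had a log2 fold change of 0.92 ± 0.12, just under the threshold. Rgs2 (uncertain), which limits signalling through Gq, rose by 2.18 ± 0.11.

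Of 28 immediate early and SRF genes, 6 were higher (21.4%) and 2 were lower (7.14%). The nuclear receptor Nr4a3 rose by 2.67 ± 0.17, and Egr1 had a log2 fold change of -0.59 ± 0.09. Of 21 MAP kinase feedback genes, 6 were higher (28.6%) and 1 was lower (4.76%). These included the phosphatases of ERK in opposite directions, since Dusp6 rose by 1.62 ± 0.09 and Dusp5 fell by 1.44 ± 0.11 on the log2 scale.

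Cholesterol synthesis and uptake rose, with 14 of 27 genes higher (51.9%), 0 lower and a median of 1.22. Hmgcs1, which makes HMG-CoA in the cytosol, was 70.2, 85.2 and 79.8 CPM in siNeg and 430, 446 and 529 CPM in siSlc39a2 PE. Idi1, the isomerase of isopentenyl diphosphate, rose 8.18-fold, from 16.5, 19 and 17.9 CPM to 112, 128 and 197 CPM. Cyp51, a demethylase of the sterol pathway, rose by 2.13 on the log2 scale. Against the same siNeg samples, 13 members were called higher for PE alone and 0 for the siRNA alone, and the medians were 0.98 and 0.05.

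Of 49 genes of the cell cycle and mitosis, 13 were higher (26.5%) and 1 was lower (2.04%), with a median of 0.33. Mcm4, a subunit of the replicative helicase, rose from 13.9, 20.1 and 22.6 CPM to 53.9, 57.7 and 64.9 CPM, and cyclin D1, Ccnd1, rose by 1.48 ± 0.13. Mki67 (uncertain), the proliferation marker, rose by 1.21 ± 0.30, with siNeg 1 the lowest sample at 7.62 CPM and siSlc39a2 PE 3 the highest at 42.7 CPM, and without siNeg 1 it was 0.90. Cdkn1c, an inhibitor of cyclin-dependent kinases, was the member called lower (log2 fold change -1.66 ± 0.21). PE alone gave 18 higher members and a median of 0.82. Without siNeg 1 and siSlc39a2 PE 3, 4 members were higher in siSlc39a2 PE, and with a length offset in the fit 7 were.

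Some stress genes moved. Of 45 genes of the unfolded protein response and ATF4, 7 were higher (15.6%) and 2 were lower (4.44%), shares below or near those of all genes. The endoplasmic reticulum chaperones Hspa5 (BiP) and Hsp90b1 (GRP94) rose by 1.28 ± 0.08 and 1.59 ± 0.18. Of 37 genes of heat shock, oxidative stress and metallothioneins, 7 were higher (18.9%) and 5 were lower (13.5%). These shares were near those over all genes tested (17.3% and 12.1%), and the list median was 0.06. Hsp90aa1 (uncertain) rose by 1.96 ± 0.20. The zinc-binding metallothioneins Mt1 and Mt2A (uncertain), which zinc induces, had log2 fold changes of -0.82 ± 0.21 and 0.31 ± 0.21, and Mt3, at or under 1.26 CPM, fell by 3.56 ± 0.69. Of 37 cell death regulators, 14 were higher (37.8%) and 5 were lower (13.5%), with a median of 0.65. Mlkl and Ripk3, which carry out necroptosis, rose by 2.49 ± 0.12 and 1.97 ± 0.13, and Casp1, the caspase of the inflammasome, rose by 3.40 ± 0.38. The survival factor Bcl2 rose by 2.58 ± 0.25.

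Among zinc transporters, 3 of 20 tested were higher (15%) and 0 were lower, with a median of 0.23. The share called higher was below that over all genes tested (17.3%), so the list had no excess of increases. The 3 were Slc39a10 (uncertain), Slc30a4 (uncertain) and Slc30a9, with log2 fold changes of 1.13 ± 0.17, 1.32 ± 0.17 and 1.26 ± 0.14. Without siSlc39a2 PE 3 that of Slc39a10 was 0.97, and without it and siNeg 1 only Slc30a9 was called. In general, ZIP transporters import zinc to the cytosol and the Slc30 family (ZnT) exports it, which need not hold for each member. Slc39a8, also at low level, had a log2 fold change of 0.93 ± 0.27. The other ZIP genes were between -0.60 for Slc39a3 and 0.71 for Slc39a9 (uncertain), apart from Slc39a2 itself. Slc39a4, Slc39a5 and Slc30a10 were too low to be tested, and Slc39a12 and Slc30a8 were not matched by symbol and are not analysed here.

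Of 66 ribosomal protein genes, 1 was called lower (1.52%) and 61 had an adjusted p below 0.05 in the negative direction, with a median of -0.67. In 53 of the 66 the counts are uncertain. The called gene was Rps19 (uncertain), with a log2 fold change of -1.0. Of 29 cardiac transcription factors, 3 were lower (10.3%) and 1 was higher (3.45%), both below the shares over all genes tested (12.1% and 17.3%). Gata4 had a log2 fold change of 0.06 and Nkx2-5 of -0.44, while Klf15, which restrains hypertrophic gene programmes and promotes metabolic ones, fell by 1.86 ± 0.12. Tbx20 rose by 1.19 ± 0.19, which was 0.82 and under the threshold without siNeg 1 and siSlc39a2 PE 3. Of 19 intercalated disc genes, 4 were higher (21.1%) and 0 were lower, with the desmosomal genes Pkp2 and Dsg2 up by 1.65 ± 0.06 and 1.28 ± 0.11 and connexin 43, Gja1, at 0.07 ± 0.07. Outside the lists, Gcgr, the glucagon receptor, fell from 9.71, 7.46 and 8.79 CPM to 0.298, 0.241 and 0.4 CPM.

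**Figure D3:**
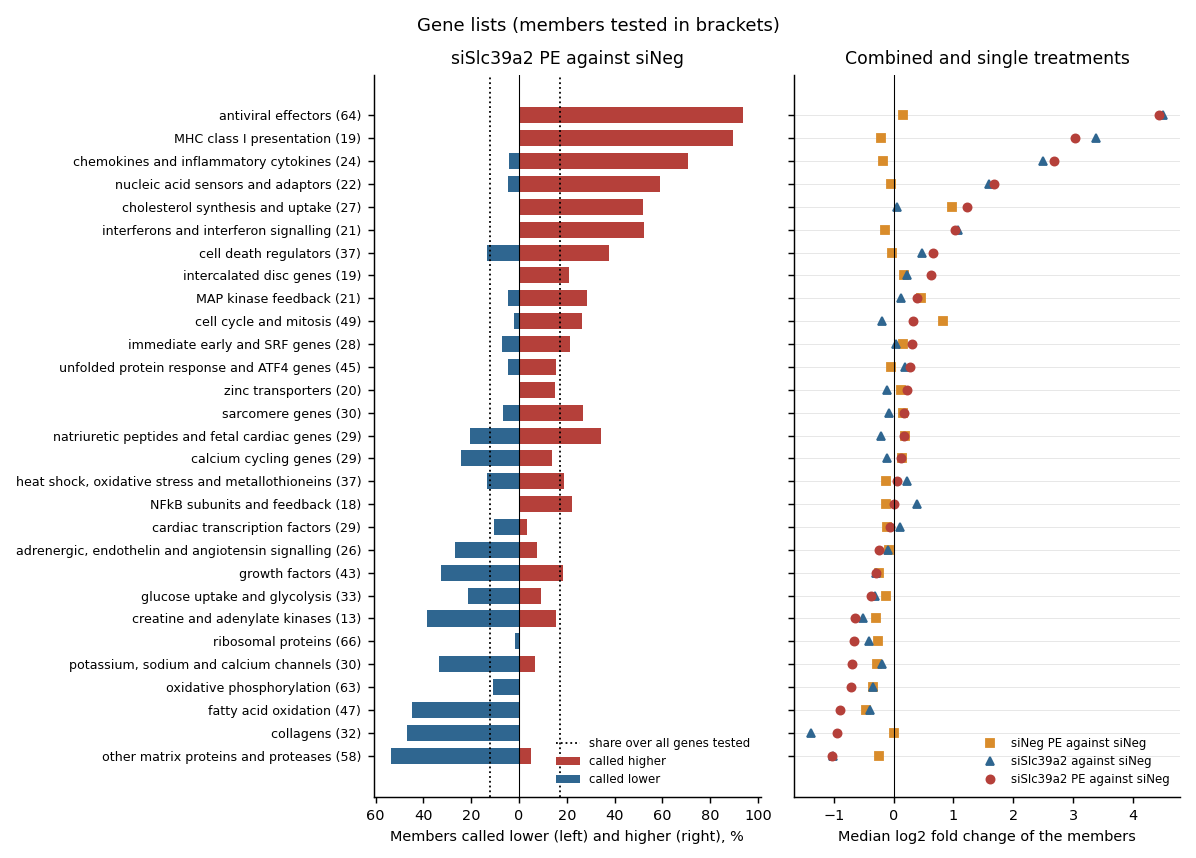
Left, the percent of each list's tested genes called lower or higher in siSlc39a2 PE against siNeg, with dotted lines at the shares of all genes tested (12.1% and 17.3%), and right, the median log2 fold change of each list for PE alone, the siRNA alone and both against the same siNeg samples. Antiviral effectors have the largest share called higher (93.8%), and other matrix proteins the largest share called lower (53.4%).

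Beside the groups with a single agent, the genes fell into different patterns. Nppa was 2064, 2973 and 3257 CPM in siNeg PE and 202, 233 and 217 CPM in siSlc39a2. Its log2 fold change against siNeg was 4.63 for PE and 0.96 for the siRNA, and siSlc39a2 PE was higher than siNeg PE by 0.89 (adjusted p = 0.000127). Nppb was 234, 296 and 369 CPM in siNeg PE and 57.8, 59.5 and 55.8 CPM in siSlc39a2, with log2 fold changes of 5.19 and 2.81, and siSlc39a2 PE exceeded siNeg PE by 2.33. Ankrd1 had log2 fold changes of 2.32 and 1.22 with the single agents. For these 3 genes the interaction test did not show a departure of the shift with both agents from the sum of the single shifts on the log2 scale (Nppa, -0.07 ± 0.19, adjusted p = 0.906; Nppb, -0.48 ± 0.21, adjusted p = 0.295; Ankrd1, 0.44 ± 0.16, adjusted p = 0.165).

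With PE alone, the log2 fold change against siNeg was -0.14 for Irf7, -0.07 for Isg15, -0.98 for Cxcl10 and -0.38 for Ifit3, and none of these was called. With the siRNA alone it was 7.11, 7.17, 5.72 and 8.54. The DNA sensor Cgas was called higher with PE alone (log2 fold change 1.78). Irf7 was lower in siSlc39a2 PE than in siSlc39a2 (log2 fold change -0.78, adjusted p = 0.000153). Isg15 was 1031, 1050 and 961 CPM in siSlc39a2 and lower in siSlc39a2 PE, with a log2 fold change of -0.61 (edgeR adjusted p = 5.6e-05). Cxcl10 was 767, 686 and 677 CPM in siSlc39a2 and was lower in siSlc39a2 PE (log2 fold change -0.68, adjusted p = 0.000469). Ifnb1 was 8.5, 8.2 and 7.37 CPM in siSlc39a2, above all samples of siSlc39a2 PE, with a log2 fold change of -2.48 (adjusted p = 1.15e-05). Ifit3 had no such difference past the test (log2 fold change -0.20, adjusted p = 0.167). The summed antiviral effectors were 18421, 17781 and 18005 CPM in siSlc39a2, higher than the 3 sums of siSlc39a2 PE.

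Among matrix genes, Col1a1 was 5694, 6944 and 7370 CPM in siNeg PE and 3296, 3316 and 3442 CPM in siSlc39a2, and siSlc39a2 PE was lower than siSlc39a2, with a log2 fold change of -0.49 (edgeR adjusted p = 0.00616). The median of the collagens was 0.01 for PE alone and -1.38 for the siRNA alone against siNeg, with 22 members called lower by the siRNA. Their summed level was 8920 ± 92.1 CPM in siSlc39a2 and 9043 ± 928 CPM in siSlc39a2 PE, beside 25493 ± 3287 CPM in siNeg. The median of fatty acid oxidation was -0.46 and -0.40, so that its median of -0.89 with both agents stood beside about equal single values. The median of the antiviral effectors was 0.16 for PE and 4.5 for the siRNA, and that of MHC class I presentation was -0.22 and 3.38.

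Across all genes, 504 of 13967 had an interaction with an adjusted p below 0.05 (3.61%), 241 of them positive and 263 negative. A positive interaction means that siSlc39a2 PE was higher than the sum of the single shifts gives on the log2 scale. Fhl1 was 988, 1268 and 1476 CPM in siNeg PE and 223, 241 and 245 CPM in siSlc39a2, the latter overlapping siNeg, and its interaction was 1.33 ± 0.16 (adjusted p = 0.000558). Tgfb2 was 38.1, 54.8 and 61.2 CPM in siNeg PE and 29, 30 and 33.1 CPM in siSlc39a2, with an interaction of 1.43 ± 0.24 (adjusted p = 0.00466). Creb5, a transcription factor of the CRE-binding family, had log2 fold changes of 0.80 and 0.20 with the single agents and rose by 2.45 with both (interaction 1.45 ± 0.18, adjusted p = 0.000828). With the siRNA alone, none of these 3 genes was past the threshold.

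Other genes were below control with the siRNA alone and above it with both agents. Tgfb3 was 82.1, 86.2 and 94.7 CPM in siNeg PE and 95.1, 96.2 and 101 CPM in siSlc39a2, below all siNeg samples in both, and above all of them in siSlc39a2 PE (interaction 2.04 ± 0.10, adjusted p = 5.2e-07). Cnn1 was 147, 165 and 187 CPM in siNeg PE and 12, 11.7 and 12.3 CPM in siSlc39a2 (interaction 1.71 ± 0.12, adjusted p = 1.2e-05). Acta1 (uncertain) had log2 fold changes of 1.93 with PE and -1.35 with the siRNA, and an interaction of 1.42 ± 0.13 (adjusted p = 6.88e-05). Hbegf, an EGF receptor ligand, had log2 fold changes of 0.11 and -0.75 with the single agents and 0.50 with both (interaction 1.14 ± 0.11, adjusted p = 0.000139).

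The negative interactions given here were in genes with log2 fold changes below 0 for each single agent. Scn4b was 88.5, 80.4 and 70.3 CPM in siNeg PE and 50.8, 48.5 and 48.1 CPM in siSlc39a2, and its interaction was -1.52 ± 0.11 (adjusted p = 2.13e-05). Ky had an interaction of -1.36 ± 0.15 (adjusted p = 0.000313) and Kcnd2 (uncertain) of -1.61 ± 0.25 (adjusted p = 0.00336). Efhd1, a mitochondrial calcium-binding protein, and Fam163b were below the 2-fold threshold with each single agent and fell with both, with log2 fold changes of -2.81 and -2.47 and interactions of -1.18 ± 0.22 (adjusted p = 0.01) and -1.08 ± 0.17 (adjusted p = 0.0037). Small single changes with a large change with both were also a rule for naming genes from these same samples. Such a choice fixes the direction of the interaction and favours a large one. The values of Creb5 above have the same form.

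The single agents moved 47 genes past the threshold in opposite directions. With both agents, 18 of these were higher, 3 were lower and 26 were not called. Gjd3, a connexin, had log2 fold changes of -1.72 with PE and 1.89 with the siRNA, and of -0.29 with both (adjusted p = 0.185). Lgals5 (uncertain), a galectin, had log2 fold changes of -1.97 and 6.55, and rose by 6.08 with both.

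**Figure D4:**
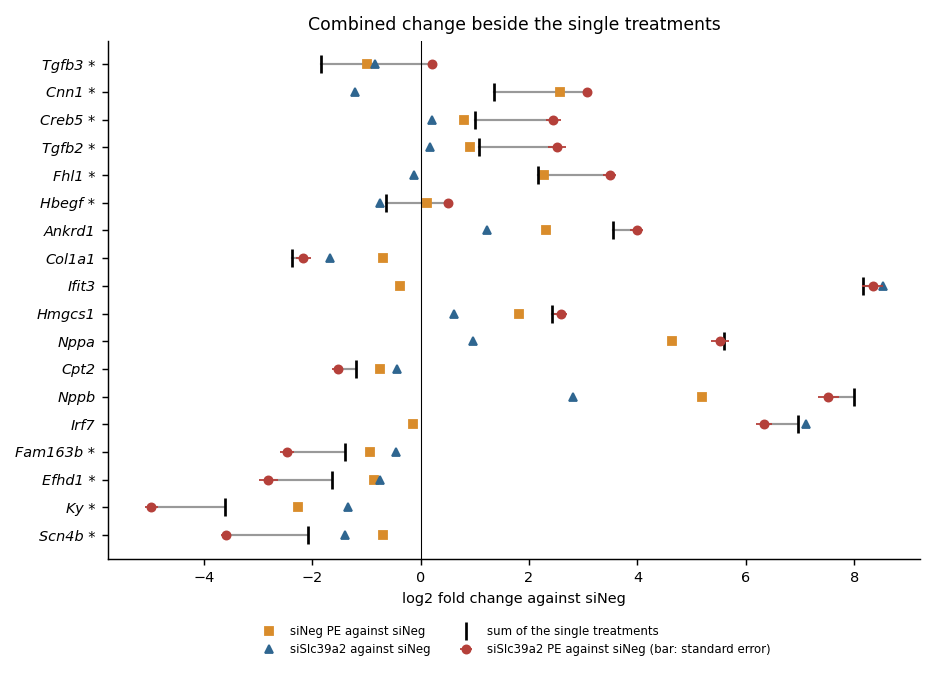
Log2 fold change against siNeg of 18 genes for PE alone (squares), the siRNA alone (triangles), both agents (red circles with SE) and the sum of the single shifts (bars), sorted by interaction. An asterisk marks an interaction with an adjusted p below 0.05, from 2.04 in Tgfb3 to -1.52 in Scn4b, and Nppa and Nppb lie close to the sum.

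The shift moved with transcript length. Over 5 equal groups of genes by length, with median lengths of 1003, 1738, 2496, 3544 and 5747 bases, the median log2 fold change of siSlc39a2 PE against siNeg was -0.26, -0.08, 0.01, 0.16 and 0.34. Differences between samples of 1 group also moved with length. siNeg 1 against siNeg 2 and 3 went in the opposite direction, from 0.20 in the shortest to -0.24 in the longest genes, and siSlc39a2 PE 3 against siSlc39a2 PE 1 and 2 went in the same direction, from -0.12 to 0.20. Without siNeg 1 and siSlc39a2 PE 3, the medians of siSlc39a2 PE against siNeg were -0.15 in the shortest and 0.18 in the longest genes, and 1840 genes were higher and 1591 were lower. With a length offset in the fit, 2058 genes were higher and 1834 were lower. Ribosomal protein genes, which are short, had a median of -0.21 with the offset and -0.50 without these 2 samples in place of -0.67. The genes of oxidative phosphorylation had medians of -0.42 and -0.60 in place of -0.71, with 3 and 3 called lower in place of 7. The antiviral effectors had 60 and 59 members called higher in these fits, the collagens 18 and 18 lower, fatty acid oxidation 20 and 19 lower, and cholesterol synthesis and uptake 15 and 15 higher. The zinc transporters had 2 and 1 called higher in place of 3, and the cell death regulators 2 and 2 called lower in place of 5.

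**Figure D5:**
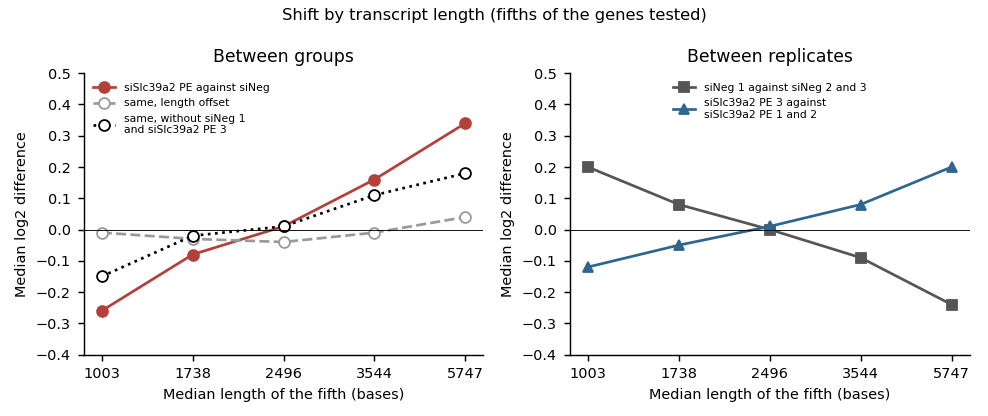
Median log2 fold change of siSlc39a2 PE against siNeg over 5 equal groups of genes by transcript length (x axis, median length in bases), also with a length offset and without 2 samples, and on the right the shift of siNeg 1 and of siSlc39a2 PE 3 against the other 2 samples of their groups. The median goes from -0.26 in the shortest to 0.34 in the longest genes. It is flat with the length offset by construction, because the offset removes the trend with length in each sample.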

How the data were processed

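RNA-seq was performed on NRVMs of 4 groups with 3 samples each, which the study's methods call independent biological replicates. Values are deposited as unnormalized expected counts, which divide reads with several possible genes among those genes. FPKM values, which the authors scaled to transcript length and mapped fragments, accompany them. The submitters' processing notes name HISAT, Bowtie2 and the build Rnor_6.0, and the counting program and annotation are not given in the sources used here. Total counts per sample were between 24065539 and 28603854, and genes whose counts were not whole in every sample within 0.005 are given as uncertain.

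In R 4.3.3 with edgeR 4.0.16, counts were rounded, 4516 low genes were dropped with filterByExpr, and libraries were scaled by TMM. All 12 samples were fitted in one model of 4 groups (8 residual degrees of freedom), and siSlc39a2 PE was compared with siNeg by edgeR's quasi-likelihood F-test, with p-values adjusted over all genes after Benjamini and Hochberg. The interaction is the shift with both agents less the sum of the single shifts, on the log2 scale. Fold changes of genes with at most 3 counts in every siNeg sample are lower bounds against 3 counts per library. Such floors cover counting error only. The methods of the study name limma after normalization between arrays, and limma 3.58.1 on quantile-normalized values was run as an alternative, beside DESeq2 1.42.0, RLE size factors, no filter, the 6 samples alone, a replicate block, other thresholds and leaving out each sample. A length offset and leaving out 2 samples together were added after seeing the data. The fits were tested on simulated data. Motifs were searched by exact letters in RefSeq promoters of GRCr8 with Python 3.11.15.

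Named genes are those the study names and the 8 highest and 8 lowest called genes with a mean log2 CPM above 1, whole counts and no overlap of the groups. They are also, under the same conditions, the 5 largest gains and 5 largest losses of CPM, and in each list the core members and the 3 called members with the largest changes. Further ones are the 6 genes with the largest absolute log2 fold change with both agents among those at most 1 for each single agent. Also named are 6 genes called in opposite directions by the single agents, and cell type markers. The comparison, the gene lists and the rule were chosen with earlier results of these data known. Some genes that the rule names are not reported here.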

Additional observations from a re-analysis of the deposited data

Results flagged for a closer look

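For 12 of the genes named, among 504 genes in all, the shift with both agents departed from the sum of the single shifts by the interaction test of edgeR (adjusted p below 0.05 over all genes tested). The interaction was positive in Tgfb3 (2.04), Cnn1 (1.71), Creb5 (1.45), Tgfb2 (1.43), Acta1 (1.42, uncertain), Fhl1 (1.33) and Hbegf (1.14). It was negative in Kcnd2 (-1.61, uncertain), Scn4b (-1.52), Ky (-1.36), Efhd1 (-1.18) and Fam163b (-1.08). Adjusted p ranged from 5.2e-07 for Tgfb3 to 0.01 for Efhd1. Creb5, Efhd1 and Fam163b had small changes with each single agent and a large one with both. That form was also a rule for naming genes from these samples, so it fixes the direction of their interactions. Tgfb3 stood below siNeg with each single agent and above all siNeg samples with both. With limma on log2(FPKM + 1), the interactions of Ky (-0.18), Kcnd2 (-0.31) and Efhd1 (-0.49) were no longer past the test.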

How the results depend on the processing

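The counts of genes higher and lower in siSlc39a2 PE than in siNeg were 2399 and 1660 with DESeq2 and 2404 and 1701 with the replicate block. They were 5307 and 5204 by adjusted p alone, 3955 and 3300 at a threshold of 1.5-fold, and 1026 and 955 with limma on log2(FPKM + 1), where the pseudocount shrinks low genes. Leaving out 1 sample gave between 2037 (without siSlc39a2 PE 3) and 2763 (without siSlc39a2 PE 1) higher genes and between 1627 and 1738 lower genes. Leaving out siNeg 1 and siSlc39a2 PE 3 gave 1840 and 1591, and the length offset gave 2058 and 1834. Slc39a2 was not called under any of these settings. Its log2 fold change was between -1.06 and -0.60 with adjusted p between 0.00862 and 0.282, and its low counts limit that test. Of 29 lists, 16 had a larger share called higher than all genes tested and 12 a larger share called lower, and the settings gave 15 to 20 and 10 to 14.

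Of the other 138 genes named, 109 kept their side of the threshold and their direction under all settings, and 20 crossed the threshold in at least 1. The causes of changes of sign were not tested unless given. With the length offset, Ddr2 was -0.09, Gata4 -0.08, Gja1 -0.05, Irf3 0.02, Stat3 -0.10 and Tcf21 0.00. Actc1, called higher at 1.27, was 0.00 with limma on FPKM, since quantile normalization sets the most abundant gene of every sample to 1 value. With limma on log2(count + 1), Cd36 was 0.01, Myh7 -0.10, Ryr2 0.17 and the interaction of Nppa 0.03. Myh7 was 0.49 in the edgeR fit reported and 1.17, past the threshold, with limma on both scales of FPKM. Ryr2 was 0.19 with limma on both scales of FPKM. Leaving out samples gave -0.19 to 0.30 for Ddr2, -0.22 to 0.02 for Gas1, -0.08 to 0.01 for Irf3, -0.31 to 0.07 for Ryr2, and -0.16 to 0.04 for the interaction of Nppa. Atp2a2 crossed the threshold without siNeg 1 (-1.03), Adra1a without siSlc39a2 PE 1 (1.03), and Rps19 left it without siNeg 1 (-0.89) or siSlc39a2 PE 3 (-0.93). Slc39a8 crossed it without siNeg 2 (1.09), siSlc39a2 PE 1 (1.04) or siSlc39a2 PE 2 (1.04).

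Same-numbered samples of siNeg and siSlc39a2 PE deviated from their group means with correlations of 0.228, 0.007 and 0.13 across genes. For differently numbered samples the correlations were between -0.214 and 0.126. The fit reported did not take the numbers as pairs, and whether they are pairs was not tested. With the replicate block no named gene crossed the threshold, and the interaction of Ankrd1 (0.45, adjusted p = 0.00277) passed the edgeR test.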
